A study of Mus musculus with 2 samples.

Results

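The 9 genes described here encode receptors and ligands that deliver costimulation to T cells in tumors. They were taken by name, with no threshold on their values, from the 14654 genes of the deposited count table. The set holds the CD28 family receptors Cd28 and Icos, the TNF receptor family members Tnfrsf4 (OX40), Tnfrsf9 (4-1BB) and Tnfrsf18 (GITR), the receptor Cd40 with its ligand Cd40lg, and the CD28 ligands Cd80 and Cd86. All 9 had counts.

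Tumors of YUMMER1.7, an immunogenic BRAF-mutant mouse melanoma line that also lacks Cdkn2a, were grown under the skin of male C57BL/6 mice aged 8 weeks. Hosts were wild type (WT) or Siah2-/-, a germline loss of the RING finger ubiquitin ligase Siah2, and tumors were collected on day 11. Live CD45+ cells, the leukocytes, were sorted with a smaller number of CD45- cells mixed back in, and 1 droplet library was made per genotype with 3′ chemistry. The sources used here do not say how many tumors entered each library, and genotype, tumors and library cannot be told apart. WT contributed 4512 cells and the library labelled Siah2-/- 5563, with a median of 11439.5 and 8700.0 unique molecular identifiers (UMIs, counted RNA molecules) per cell, and 34 cell barcodes occurred in both libraries. Siah2 itself gave 660 and 505 UMIs. The sources used here do not say which part of the gene is deleted, so these 3′ tags do not check the genotype, and groups are named by their labels.

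A T cell responds fully to antigen only when its antigen receptor and a costimulatory receptor are engaged together. CD28 on T cells binds CD80 and CD86 on antigen-presenting cells, and ICOS follows it after activation. OX40, 4-1BB and GITR are induced on activated T cells, are known to be abundant on regulatory T cells in tumors, and signal through TRAF adaptors to NF-kB. CD40 on dendritic cells (DCs) and macrophages receives CD40 ligand from activated CD4 T cells.

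In GRCm38 the set fell into a few genomic neighbourhoods. Cd28 (ENSMUSG00000026012, chromosome 1 from 60716800 to 60773359, plus strand) and Icos (ENSMUSG00000026009, chromosome 1 from 60977927 to 61000320, plus strand) flank Ctla4, with starts 261.1 kb apart. Tnfrsf4 (ENSMUSG00000029075, chromosome 4 from 156013843 to 156016612) and Tnfrsf18 (ENSMUSG00000041954, chromosome 4 from 156026164 to 156028895) are neighbours on the plus strand, 12.3 kb from start to start. Tnfrsf9 (ENSMUSG00000028965, plus strand) lies on the same chromosome from 150914562 to 150946102. Cd80 (ENSMUSG00000075122, chromosome 16 from 38455561 to 38496335, plus strand) and Cd86 (ENSMUSG00000022901, chromosome 16 from 36603869 to 36666081, minus strand) start 1789 kb apart. Cd40 (ENSMUSG00000017652) lies on chromosome 2 from 165055627 to 165072948 and Cd40lg (ENSMUSG00000031132) on chromosome X from 57212143 to 57224042, both on the plus strand. Icos overlaps the unclassified transcript Gm37039 on its own strand, while Camta1 and the antisense gene Gm16008 overlap Tnfrsf9 and Tnfrsf18 on the other strand. The sources used here do not say whether counting used strand, so counts of these 3 genes may hold reads of their neighbours.

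Promoter windows from RefSeq (GRCm38.p6, 250 bases before to 50 bases after a start) were at hand for 4 of the 9 genes. The 3 windows of Tnfrsf9 and Cd80 are shown because these members had the widest ratios between the libraries over all macrophages together, though not in every macrophage state. Tnfrsf9 has an upstream start (chr4:150919905-150920204) and a downstream start (chr4:150927749-150928048), and the Cd80 window is chr16:38458683-38458982, all on the plus strand. Capitals mark matches to GGGANTTCC (an NF-kB motif) and TGANTCA (an AP-1 motif), searched on both strands.
Tnfrsf9 upstream start: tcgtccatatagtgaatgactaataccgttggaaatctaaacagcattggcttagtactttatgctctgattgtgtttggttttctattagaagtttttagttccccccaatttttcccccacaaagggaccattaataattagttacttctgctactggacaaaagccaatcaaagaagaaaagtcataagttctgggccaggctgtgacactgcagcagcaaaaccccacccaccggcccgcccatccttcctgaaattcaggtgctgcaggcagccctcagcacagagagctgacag
Tnfrsf9 downstream start: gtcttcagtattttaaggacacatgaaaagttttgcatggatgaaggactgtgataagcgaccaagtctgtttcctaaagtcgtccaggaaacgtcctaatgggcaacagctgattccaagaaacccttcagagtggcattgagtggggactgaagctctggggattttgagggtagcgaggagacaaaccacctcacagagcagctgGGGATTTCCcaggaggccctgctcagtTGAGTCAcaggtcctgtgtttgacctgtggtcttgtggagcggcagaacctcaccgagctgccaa
Cd80: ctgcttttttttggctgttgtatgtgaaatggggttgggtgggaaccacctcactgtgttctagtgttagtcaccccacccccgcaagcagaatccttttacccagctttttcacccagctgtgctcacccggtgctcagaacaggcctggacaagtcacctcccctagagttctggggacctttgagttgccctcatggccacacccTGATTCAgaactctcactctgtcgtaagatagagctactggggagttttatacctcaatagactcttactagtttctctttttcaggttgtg
The downstream Tnfrsf9 window held an NF-kB match that begins at position -42 from the start and an AP-1 match at -15. The Cd80 window held an AP-1 match at -42. Neither motif matched in the upstream Tnfrsf9 window or in those of Tnfrsf4 and Tnfrsf18. Among 32851 mouse promoter windows, 1.68% held the NF-kB letters and 7.81% the AP-1 letters. The motif letters were chosen after the sequences had been seen, a match is not a binding site, and which Tnfrsf9 start these cells used cannot be told from 3′ counts.

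Levels are given as CPM, the UMIs of a gene summed over the cells of a class in 1 library and scaled to a fixed total of UMIs of that class. They are not divided by transcript length, so they are compared between classes and libraries but not between genes. Ranges in parentheses are exact 95% intervals that cover counting error only. With 1 library per genotype there is no replicate check, and no p-value is given. T cell clusters were divided by marker UMIs into cells with Foxp3 UMIs, CD4 cells without them, cycling and non-cycling CD8 cells and T cells without Cd4 or Cd8 UMIs. Natural killer (NK) cells, 6 macrophage or monocyte clusters, and immature and mature DC clusters completed 14 classes. Macrophage states were assigned by lists of marker genes, and cycling macrophages by Csf1r and Mki67. The Cxcl2 class was assigned by Spp1, Hmox1 and Bnip3 and is labelled for Cxcl2, which is among its leading genes. All these names are short for cells like that type, by marker UMIs and clusters, since none of them was sorted. Their defining markers were present. Cd3e was at 599 and 599.5 CPM in non-cycling CD8 T cells and 12.2 and 24.5 in NK cells, Csf1r at 556 and 519 in all macrophages, and Ccr7 at 2708 and 3663 in mature DCs (WT first, as in every such pair).

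Free RNA set a floor on low values. In droplets of 10 to 100 UMIs, which hold no cell, Cd28 was at 50.7 and 85.1, Icos at 76.6 and 87.9, Tnfrsf4 at 331 and 223, Tnfrsf9 at 221 and 216 and Tnfrsf18 at 314 and 245 CPM. The myeloid members were at 39.2 and 42.5 (Cd40), 4.18 and 6.51 (Cd80) and 70.6 and 97.9 (Cd86), and Cd40lg at 2.61 and 6.32. Clusters with little Ptprc (CD45), which should lack the T cell receptors, held Cd28 at 2.33 and 6.74, Icos at 1.97 and 6.02 and Tnfrsf4 at 4.90 and 10.6. All 8 members with counts in both libraries were higher there in the library labelled Siah2-/-, by log2 ratios of 1.53 (0.81 to 2.22) for Cd28 and 1.61 (0.84 to 2.36) for Icos, and Cd40lg had 0 and 1 UMIs. The part of such RNA in the differences described next was not tested.

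**Figure D1:**
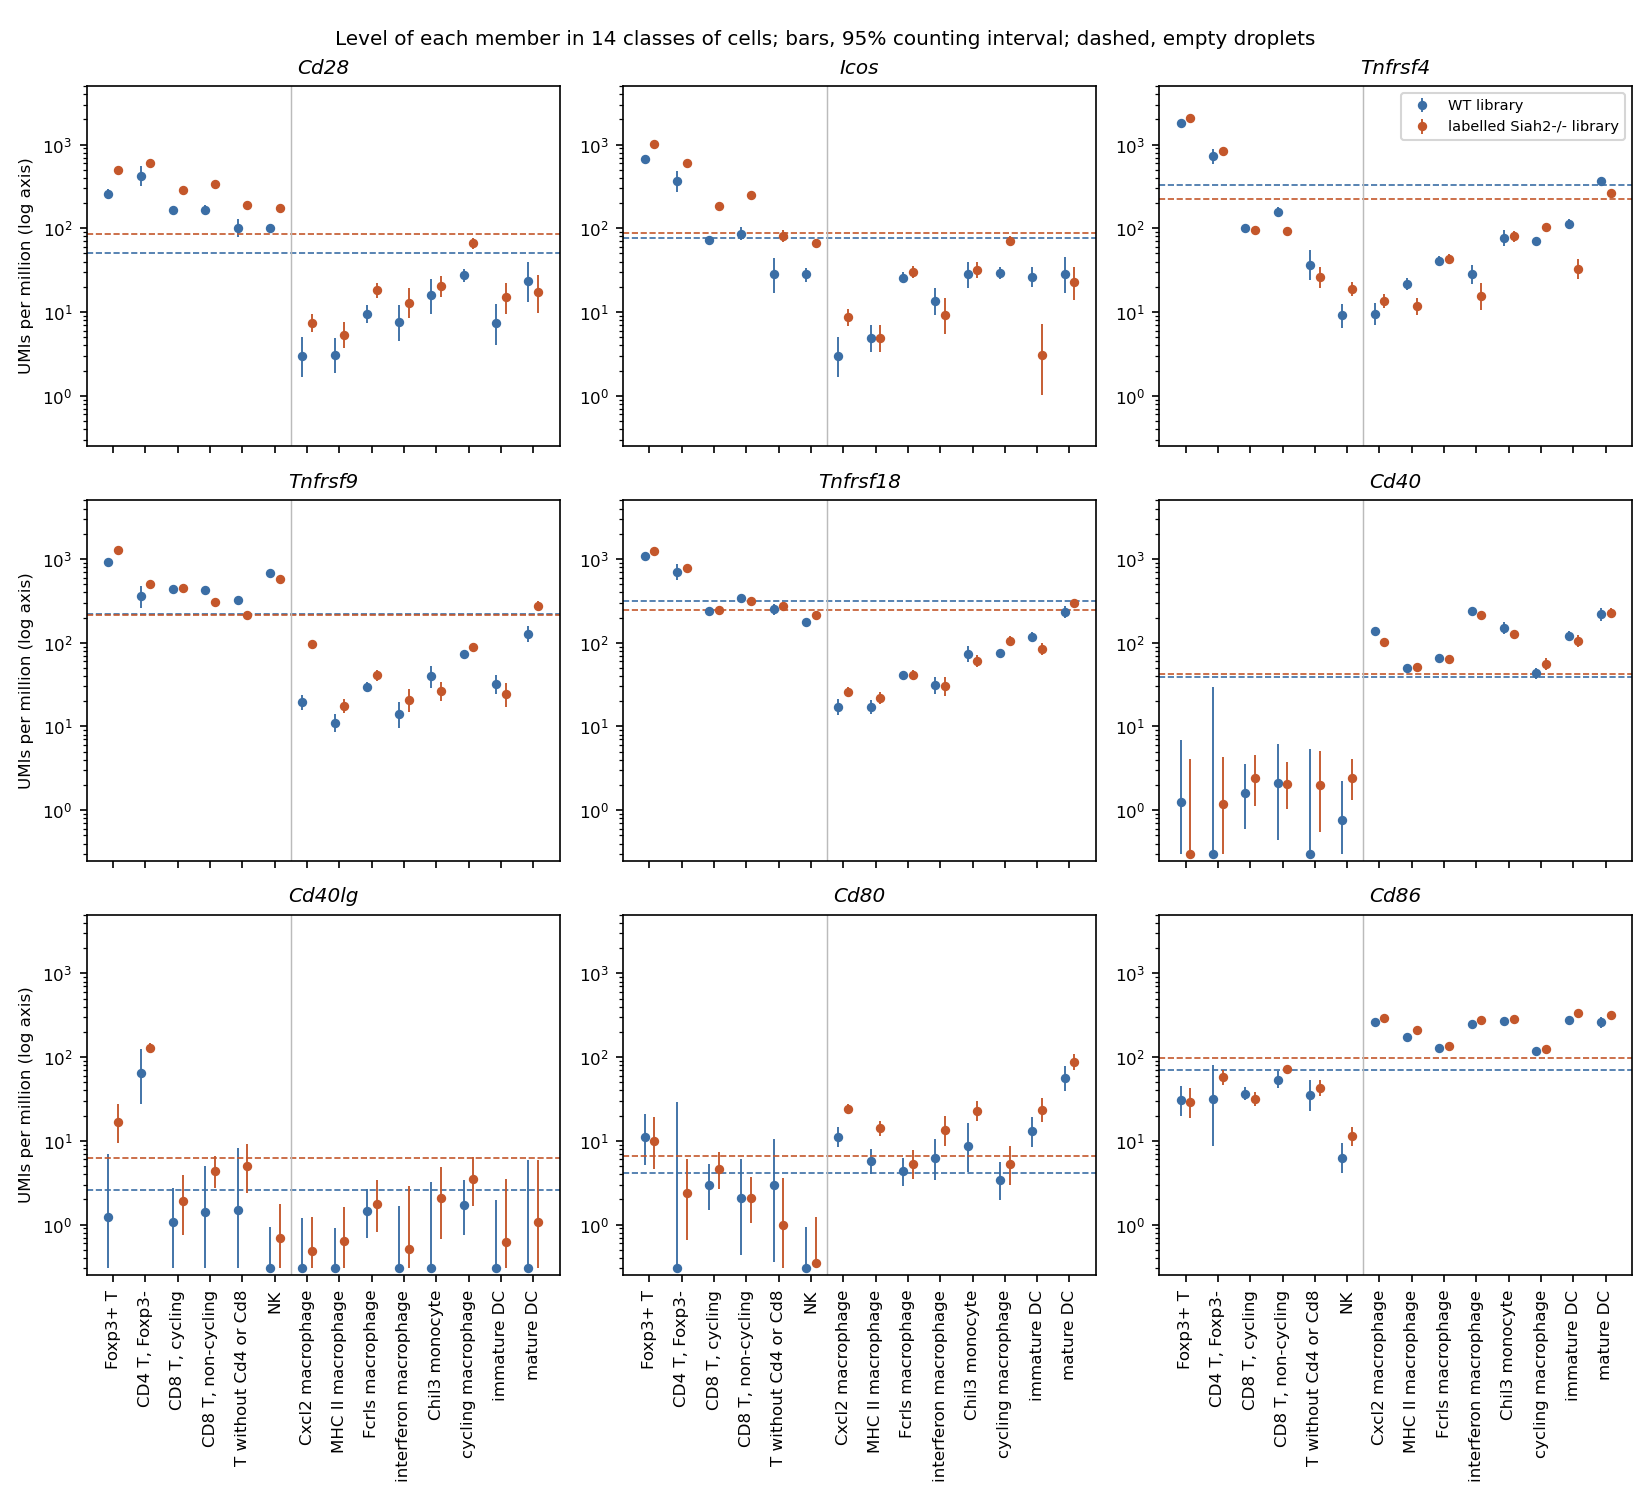
Level of each of the 9 genes (CPM, log axis) in 14 classes, with points for the WT library and the library labelled Siah2-/-, bars for the exact 95% counting interval and dashed lines for empty droplets. Values below 0.3, zeros included, are drawn at 0.3. Cd28, Icos, Tnfrsf4, Tnfrsf9 and Tnfrsf18 sit high on the left (T and NK classes), Cd40, Cd80 and Cd86 on the right (myeloid classes), and Tnfrsf4 peaks in Foxp3+ T cells at 1824 and 2091.

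Cd28, the receptor for CD80 and CD86, was carried by every T and NK class and was higher in the library labelled Siah2-/- in all 6, past 1.5-fold in 5. In both libraries the order ran from CD4 T cells without Foxp3 to Foxp3+ T cells, CD8 T cells, and then T cells without Cd4 or Cd8 and NK cells, whose intervals overlapped each other. Non-cycling CD8 T cells held 166 (146 to 189) for WT against 339 (323 to 355) for the library labelled Siah2-/-. Cycling CD8 T cells held 164 (151 to 177) for WT against 285 (269 to 303) for the library labelled Siah2-/-, and NK cells 102 (92.0 to 112) for WT against 175 (164 to 186) for the library labelled Siah2-/-. None of these 3 pairs of intervals overlapped, and the log2 ratios of the library labelled Siah2-/- over WT were 1.02 (0.83 to 1.23), 0.80 (0.66 to 0.95) and 0.78 (0.61 to 0.95). Foxp3+ T cells held 255 (221 to 292) for WT against 491 (446 to 539) for the library labelled Siah2-/-, a log2 ratio of 0.95 (0.70 to 1.19). In CD4 T cells without Foxp3 the values were 423 (317 to 553) and 597 (560.2 to 635), a log2 ratio of 0.50 (0.10 to 0.92), but the WT class had 15 cells and 1 of them held 26.4% of its Cd28 UMIs. All these values were above those of CD45-low cells and of empty droplets, 50.7 and 85.1, and the NK values were the nearest to the latter.

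Icos, which sustains activated and follicular helper T cells, had another order of classes and larger differences in cytotoxic cells. It was highest in Foxp3+ T cells, then in CD4 T cells without Foxp3, and several times lower in CD8 T cells, with non-overlapping intervals between these steps in both libraries. Cycling CD8 T cells held 72.2 (63.8 to 81.4) for WT against 186 (173 to 201) for the library labelled Siah2-/-. Among non-cycling ones the values were 86.4 (71.8 to 103) for WT against 251 (238 to 265) for the library labelled Siah2-/-. The library labelled Siah2-/- was 2.58 and 2.91 times as high in these classes, or 1.37 (1.16 to 1.58) and 1.54 (1.27 to 1.82) on the log2 scale. NK cells held 28.1 (23.1 to 33.8) for WT against 67.3 (60.8 to 74.4) for the library labelled Siah2-/-, a log2 ratio of 1.26 (0.95 to 1.58). These NK levels lay above CD45-low cells but below empty droplets, and Cd3e in NK cells also differed. In Foxp3+ T cells the values were 671 (615 to 729.9) and 1016 (951 to 1084), a smaller log2 ratio of 0.60 (0.44 to 0.75).

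Shares of cells followed the levels after each cell had been thinned to 4500 UMIs. A Cd28 UMI was found in 51.8% (44.0 to 59.5) of cells for WT against 67.3% (63.6 to 70.8) for the library labelled Siah2-/- for non-cycling CD8 T cells, and in 49.1% and 69.0% of cycling ones. For Icos these shares were 28.6% (21.9 to 36.0) of cells for WT against 51.8% (47.9 to 55.6) for the library labelled Siah2-/-, and 22.2% and 54.0%. Intervals of the 2 libraries did not overlap in either class for either gene. Without thinning, the non-cycling shares were 69.0% and 79.4% for Cd28 and 38.7% and 61.1% for Icos, at median depths of 8004 and 7154 UMIs per cell. CD45-low cells, at median depths of 23789 and 25990, had thinned shares of 0.957% and 4.09% for Cd28 and 0.478% and 1.17% for Icos.

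**Figure D2:**
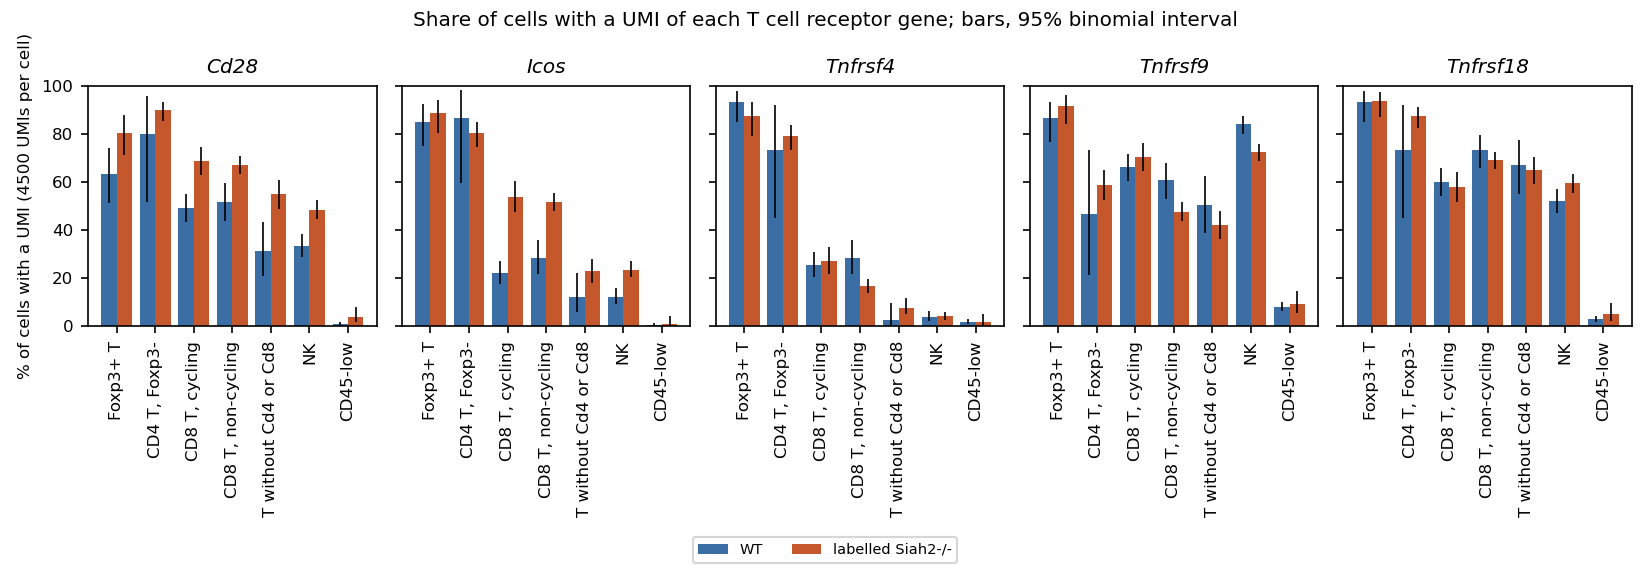
Share of cells (%) with at least 1 UMI of each T cell receptor gene after thinning to 4500 UMIs per cell, by class and library, with bars for the exact 95% binomial interval. Icos stands at 22.2% and 54.0% in cycling CD8 T cells, Tnfrsf4 is highest in Foxp3+ T cells at 93.2% and 87.6%, and CD45-low cells lie below 10% for all 5 genes.

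The TNF receptor family members did not share the pattern of Cd28 and Icos. Tnfrsf4 and Tnfrsf18 both peaked in Foxp3+ T cells, with CD4 T cells without Foxp3 next, and differed there by less than 1.5-fold between the libraries. Tnfrsf4, a survival receptor of activated CD4 T cells, held 1824 (1732 to 1920) for WT against 2091 (1998 to 2188) for the library labelled Siah2-/- in Foxp3+ T cells. That is a log2 ratio of 0.20 (0.10 to 0.30), or 1.15 times as high. Tnfrsf18, which encodes GITR, held 1092 (1021 to 1167) for WT against 1258 (1185 to 1333) for the library labelled Siah2-/- in the same cells, a log2 ratio of 0.20 (0.08 to 0.33). In the values as analysed Tnfrsf18 was within 1.5-fold between the libraries in all 14 classes. In Cxcl2 macrophages it was near that limit, with a log2 ratio of 0.56. That ratio ranged from 0.54 to 2.66 over 8 alternatives and was highest with free RNA subtracted. In Chil3 monocytes it was -0.27 and ranged from -1.47 to 1.72.

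Tnfrsf4 in CD8 T cells went the other way from Icos. In the non-cycling class it stood at 156 (136 to 178) for WT against 93.4 (85.4 to 102) for the library labelled Siah2-/-, so WT was 1.67 times as high, at a log2 ratio of -0.74 (-0.97 to -0.50). The thinned share of cells was 28.6% and 16.7%. Cycling CD8 T cells did not show the difference, with 102 (91.9 to 113) and 96.5 (86.8 to 107). In NK cells the values were low in both libraries, 9.11 and 18.9, and 1 cell held 36.4% of the NK UMIs in the library labelled Siah2-/-.

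Tnfrsf9, a receptor of activated CD8 T and NK cells, was carried by every lymphoid class. Foxp3+ T cells led in both libraries, with 926 (860.3 to 994) for WT against 1275 (1202 to 1351) for the library labelled Siah2-/- and a log2 ratio of 0.46 (0.33 to 0.60). NK cells came second, with 681 (655 to 707) for WT against 579 (559.8 to 599) for the library labelled Siah2-/-. There WT was the higher library, although by less than 1.5-fold, a log2 ratio of -0.23 (-0.31 to -0.16). The non-cycling CD8 class was also lower in the library labelled Siah2-/-, at 426 (392 to 461) and 302 (288 to 318), while the intervals of cycling CD8 T cells overlapped at 434 (413 to 456) and 445 (424 to 467).

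**Figure D3:**
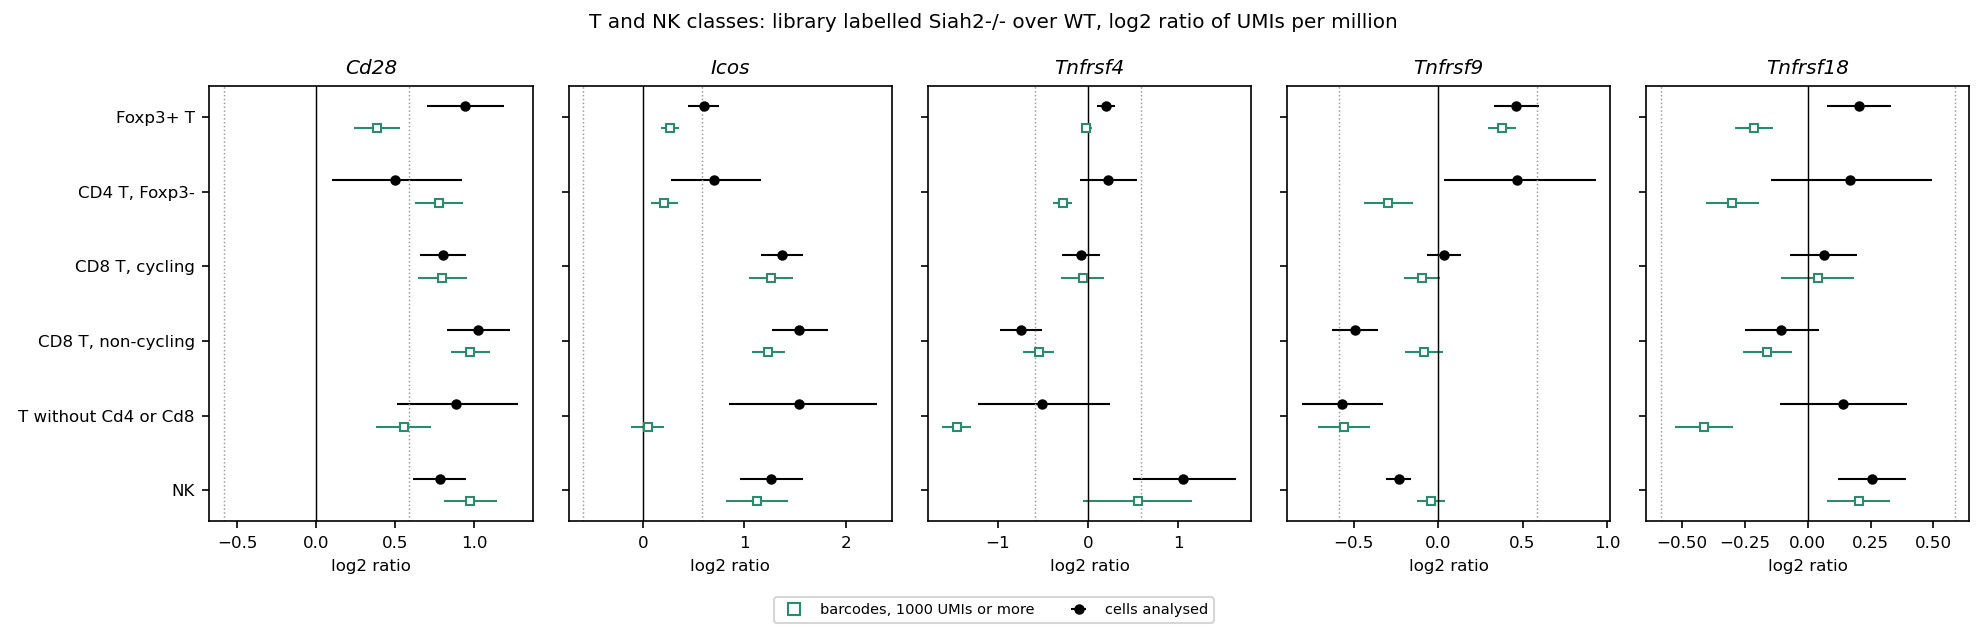
Log2 ratio of CPM, library labelled Siah2-/- over WT, for 5 receptors in T and NK classes, with 95% counting intervals. Circles are the cells analysed, squares barcodes with 1000 UMIs or more classed by marker UMIs, and dotted lines 1.5-fold. The points of Cd28 and Icos lie right of 0 in every class, while those of Tnfrsf18 stay between the dotted lines.

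Cd28 and Icos made up 11 of the 17 pairs of member and lymphoid class that were at least 1.5-fold higher in the library labelled Siah2-/-. A pair counted when it had 20 UMIs over both libraries. In cycling CD8 T cells 3 of 7 members were at least 1.5-fold higher in the library labelled Siah2-/-, against 8.14% of all genes, and 0 were lower, against 6.18%. Besides Cd28 and Icos the third was Cd80, with 11 and 17 UMIs and a log2 ratio of 0.63 (-0.55 to 1.87). In non-cycling CD8 T cells 3 of 7 were higher, against 14.0%, and 1 was lower, against 9.31%. Here the third was Cd40lg, which had 20 UMIs only through the library labelled Siah2-/-, so that the count without it is 2. In NK cells 4 of 6 were higher, against 12.7%, and 0 were lower, against 4.85%. Besides Cd28 and Icos these were Tnfrsf4, at 9.11 and 18.9 CPM, and Cd86, at 6.33 and 11.4. Both lay far below empty droplets, at 331 and 223 for Tnfrsf4 and 70.6 and 97.9 for Cd86. In Foxp3+ T cells 2 of 6 were higher, against 13.0%, and 0 were lower, against 13.4%. T cells without Cd4 or Cd8 had 2 of 6 higher, against 16.6%, and 0 lower, against 11.6%. Icos (19 and 163 UMIs) had 20 UMIs there only through the library labelled Siah2-/-, which leaves Cd28. CD4 T cells without Foxp3 had 3 of 7 higher, against 27.0%, and 0 lower, against 19.1%, a high background in a class of 15 WT cells. Of these 3, Cd40lg (8 and 218 UMIs) and Cd86 (4 and 96 UMIs) had 20 UMIs only through the library labelled Siah2-/-, which leaves Icos (46 and 1001 UMIs).

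The depth of the cells kept differed between the libraries and touched the Foxp3+ result. No WT cell had fewer than 6670 UMIs, while the library labelled Siah2-/- went down to 4896, so cells between these counts came from it alone. With the WT minimum applied to both, Foxp3+ T cells had log2 ratios of 0.62 for Cd28 and 0.44 for Icos, the second within 1.5-fold. When barcodes of the unfiltered matrices with 1000 UMIs or more were classed by marker UMIs alone, Foxp3+ T cells numbered 472 and 245. In them Cd28 was at 406 and 531, a log2 ratio of 0.39 (0.24 to 0.53), and Icos at 1058 and 1275, a log2 ratio of 0.27 (0.18 to 0.36), no longer past 1.5-fold. Tnfrsf18 turned in Foxp3+ T cells, to -0.0055 with the WT minimum and -0.22 (-0.29 to -0.14) in the larger set of barcodes, where Tnfrsf4 was at -0.02 (-0.08 to 0.04). Icos in CD4 T cells without Foxp3, with a log2 ratio of 0.70, also came within 1.5-fold. It was 0.51 with the WT minimum and 0.21 in the larger set of barcodes. Cytotoxic cells moved less. Of the non-cycling CD8 class there were then 842 and 998 cells, and their log2 ratios were 0.98 (0.86 to 1.10) for Cd28 and 1.23 (1.08 to 1.40) for Icos. The NK values in such barcodes were 0.98 (0.81 to 1.15) and 1.12 (0.82 to 1.42).

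The lower levels of TNF receptors in non-cycling CD8 T cells of the library labelled Siah2-/- depended on the depth of the barcode. In barcodes of 1000 UMIs or more the log2 ratio of Tnfrsf4 was -0.54 (-0.71 to -0.37), within 1.5-fold, and that of Tnfrsf9 -0.08 (-0.19 to 0.03). At 10000 UMIs or more Tnfrsf4 was at 102 and 104 and Tnfrsf9 at 399 and 405, against 456 and 90.1 for Tnfrsf4 at 1000 to under 2500 UMIs. T cells without Cd4 or Cd8, of which 43.8% and 40.7% had a UMI of the NK receptor Ncr1, moved with the choice of barcodes and of classing. Icos was at 28.1 and 81.5 there, a log2 ratio of 1.54, but 0.05 (-0.11 to 0.21) in the larger set of barcodes, and Cd28 had 0.89 and 0.55 (0.38 to 0.73). When the cells analysed were classed by marker UMIs alone, the log2 ratios were 1.84 for Icos and 1.82 for Cd28.

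**Figure D4:**
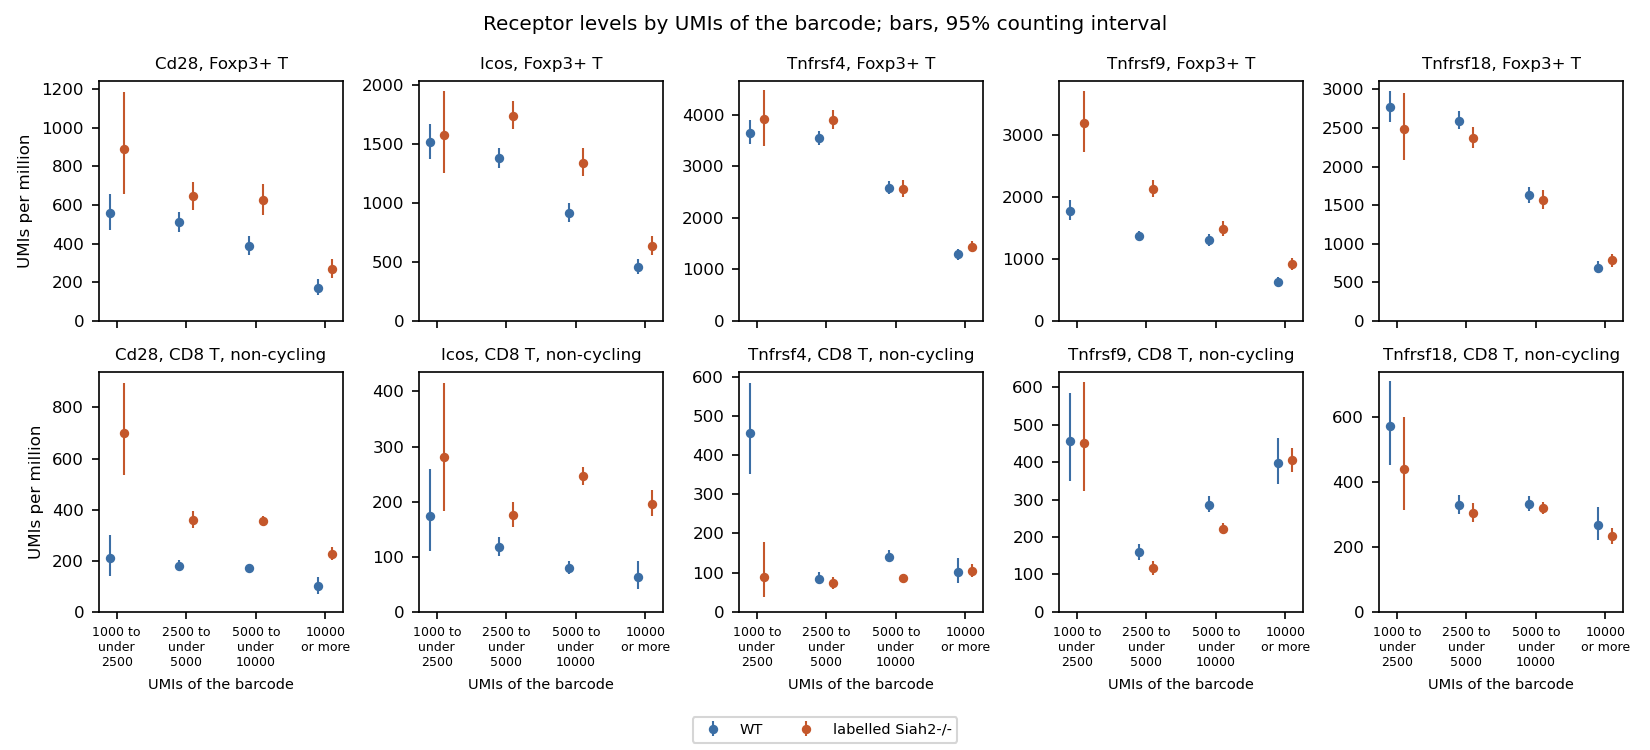
Level (CPM) of 5 receptors in Foxp3+ T cells and non-cycling CD8 T cells by the UMIs of the barcode, with 95% counting intervals, in each library. Cd28 is higher in the library labelled Siah2-/- in all 4 ranges of both classes, and all 5 levels are lower in large Foxp3+ barcodes than in small ones, as for Tnfrsf4 with 3653 and 3908 at 1000 to under 2500 UMIs and 1294 and 1440 at 10000 UMIs or more.

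Within Foxp3+ T cells, receptor levels were lower in cycling than in non-cycling cells. Cells with 5 or more UMIs of cycling markers numbered 50 for WT and 27 for the other library, against 24 and 70 without. The log2 ratio of cycling over non-cycling was -1.18 for WT against -0.88 for the library labelled Siah2-/- for Tnfrsf4. It was -0.91 and -0.65 for Icos, -0.85 and -0.84 for Tnfrsf9, -0.73 and -0.77 for Tnfrsf18 and -0.74 and -0.55 for Cd28. All 5 were past 1.5-fold lower in WT, against 15.4% of all genes, and 4 of 5 in the library labelled Siah2-/-, against 20.4%. The share of cycling cells moved with the Foxp3+ comparison between libraries, and so did Cd4, which had a UMI in 44.6% and 62.9% of the Foxp3+ T cells, and Cd8a, with 35.1% and 26.8%. Their part in the result was not tested.

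Foxp3+ T cells stood apart from other T cells in each library by itself. Over non-cycling CD8 T cells the log2 ratio of Tnfrsf4 was 3.55 for WT against 4.48 for the library labelled Siah2-/-, and that of Icos 2.96 and 2.01. Tnfrsf18 followed with 1.67 and 1.98 and Tnfrsf9 with 1.12 and 2.08. All 5 receptors were at least 1.5-fold higher in WT, where 23.1% of all genes were, and 4 of 5 in the library labelled Siah2-/-, where 21.5% were. Over CD4 T cells without Foxp3, the log2 ratios were 1.33 and 1.31 for Tnfrsf4 and 1.37 and 1.36 for Tnfrsf9, while Cd28 was lower at -0.73 and -0.28. Of the 5 receptors 4 were past 1.5-fold higher in both libraries, against 24.6% and 15.5% of all genes, and the WT value rests on 15 CD4 cells.

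A cluster of CD8 T cells marked by Tcf7, which encodes a factor of naive and memory T cells, held less of Icos, Tnfrsf4 and Tnfrsf9 than its neighbours. It held 30 WT cells and 158 cells of the library labelled Siah2-/-, within the non-cycling CD8 class. Against the other non-cycling CD8 T cells the log2 ratio of Tnfrsf9 was -2.46 (-3.14 to -1.85) for WT against -3.14 (-3.60 to -2.72) for the library labelled Siah2-/-. Tnfrsf4 stood at -3.92 (-6.21 to -2.35) and -2.53 (-3.23 to -1.90) on that scale, with 3 UMIs in the WT cluster, and Icos at -1.07 and -1.98. Cd28 differed by less than 1.5-fold, with 0.14 and -0.33. Of the 5 receptors 4 were past 1.5-fold lower in WT, as were 3 in the library labelled Siah2-/-, where 27.1% and 18.2% of all genes were.

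Receptors were also counted together in single cells thinned to 4500 UMIs. The share of Foxp3+ T cells with 3 or more of the 5 receptors was 96.0% (88.6 to 99.2) for WT against 92.8% (85.7 to 97.0) for the library labelled Siah2-/-. For cycling CD8 T cells it was 37.2% (31.6 to 43.0) for WT against 60.9% (54.5 to 67.0) for the library labelled Siah2-/-, and for NK cells 19.9% (16.1 to 24.2) for WT against 33.4% (29.8 to 37.1) for the library labelled Siah2-/-. Foxp3+ T cells were near the ceiling with overlapping intervals, while the intervals of cycling CD8 T and NK cells did not overlap between the libraries. The non-cycling CD8 shares overlapped, 46.4% (38.7 to 54.3) for WT against 50.3% (46.5 to 54.1) for the library labelled Siah2-/-.

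Cd40lg, the helper signal to DCs and B cells, had its highest level in CD4 T cells without Foxp3 in both libraries. Of its 48 UMIs in WT cells and 423 in those of the library labelled Siah2-/-, 8 and 218 were in CD4 T cells without Foxp3. In WT 11 of the 48 were in barcodes with T cell and macrophage markers together, 10 in Fcrls macrophages and 8 in cycling macrophages. Levels in CD4 T cells without Foxp3 were 63.8 (27.6 to 126) for WT against 130.1 (113 to 149) for the library labelled Siah2-/-, with overlapping intervals, and 1 WT cell held 50.0% of the WT UMIs. In barcodes with 1000 UMIs or more, which gave 267 and 590 such cells, the levels were 49.0 and 144 and the log2 ratio 1.56 (1.14 to 2.01). With the WT minimum of UMIs applied to both libraries it was 0.56, within 1.5-fold. Foxp3+ T cells held 1 and 15 UMIs, under the minimum of 20. Non-cycling CD8 T cells held 2 and 23 UMIs, a log2 ratio of 1.63 (-0.39 to 4.76) at levels below empty droplets. Cd40, the receptor, was at or below 2.43 CPM in every T and NK class.

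Among the myeloid members, Cd80 was higher in the library labelled Siah2-/- while Cd40 was not. All macrophage and monocyte clusters together held 2155 WT cells and 2478 cells of the library labelled Siah2-/-. Cd80, the CD28 and CTLA4 ligand induced on activation, was at 6.11 (5.19 to 7.14) for WT against 15.3 (13.9 to 16.9) for the library labelled Siah2-/-, or 2.51 times as high, a log2 ratio of 1.33 (1.06 to 1.60). Cd86, the more constitutive ligand, was at 177 (172 to 183) for WT against 226 (220.3 to 232) for the library labelled Siah2-/-, a log2 ratio of 0.35 (0.29 to 0.41). Cd40 was at 89.8 (86.2 to 93.6) for WT against 88.1 (84.6 to 91.7) for the library labelled Siah2-/-, with overlapping intervals and a log2 ratio of -0.03 (-0.11 to 0.05). A Cd80 UMI was found in 3.11% (2.42 to 3.93) of cells for WT against 7.47% (6.46 to 8.57) for the library labelled Siah2-/- after thinning, against 2.27% and 2.92% of CD45-low cells, whose intervals reached 3.53% and 6.69% and so overlapped them. The level did not overlap that of all CD45-low cells in the library labelled Siah2-/-, 7.22 (4.87 to 10.3), but did that of their cluster led by Hmga2, 13.5 (6.49 to 24.9) in 39 cells. In WT it overlapped the level of all CD45-low cells, 4.58 (3.72 to 5.57). Without thinning the macrophage shares were 6.87% and 14.1%, at median depths of 10431 and 9271 UMIs. In macrophage barcodes of 1000 UMIs or more, the log2 ratio of Cd80 was 1.12 (0.80 to 1.44), that of Cd86 0.43 (0.35 to 0.50) and that of Cd40 -0.02 (-0.13 to 0.09).

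The macrophage states differed in these ligands. Cxcl2 macrophages, with Cxcl2 and Il1b among their leading genes, held Cd80 at 11.2 (8.39 to 14.7) and 24.0 (20.8 to 27.6). MHC II macrophages held 5.70 (3.97 to 7.93) and 14.1 (11.3 to 17.3), and Chil3 monocytes 8.79 (4.21 to 16.2) and 22.9 (17.2 to 29.8). Intervals did not overlap between the libraries in these 3 states, and the log2 ratios were 1.09 (0.65 to 1.56), 1.30 (0.72 to 1.91) and 1.38 (0.39 to 2.52). Fcrls macrophages, led by Ccl8, Fcrls and Folr2, had overlapping intervals at 4.32 (2.92 to 6.17) and 5.34 (3.52 to 7.77). So did interferon macrophages, at 6.30 (3.44 to 10.6) and 13.5 (8.80 to 19.7), although their log2 ratio of 1.10 (0.11 to 2.15) was past 1.5-fold, and cycling macrophages had 0.61 (-0.51 to 1.72). The log2 ratio of Fcrls macrophages was 0.31, and -0.93 without integration. The mix of states was not the same, with 463 and 910 Cxcl2 macrophages and 507 and 308 Fcrls macrophages. The Cd80 ratio was past 1.5-fold in each state except Fcrls macrophages, with an interval that held 0 in cycling ones, while the part of their mix in the value over all macrophages was not tested.

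Cd40 and Cd86 differed more between states than between libraries. Cd40 was highest in interferon macrophages, at 238 (218 to 259) and 214 (193 to 235), and mature DCs, at 219 (184 to 258) and 226 (196 to 259), which overlapped. It was lowest among myeloid classes in MHC II and cycling macrophages. Cxcl2 macrophages held less Cd40 in the library labelled Siah2-/-, 139 (129 to 150.2) and 103 (95.8 to 109.7) with non-overlapping intervals, a log2 ratio of -0.44 (-0.59 to -0.29) that was -0.90 and past 1.5-fold without integration. Over MHC II macrophages they had a Cd40 log2 ratio of 1.48 for WT against 1.01 for the library labelled Siah2-/-. Cd86 in Cxcl2 macrophages, Chil3 monocytes, interferon macrophages and both DC classes formed one group of overlapping neighbours, from 252 to 275 for WT and from 278 to 337 in the library labelled Siah2-/-. Fcrls macrophages held less Cd86, at 128 (119 to 136) and 136 (126 to 147).

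Tnfrsf9 was several times higher in Cxcl2 macrophages of the library labelled Siah2-/-. Cxcl2 macrophages held 19.4 (15.6 to 23.9) for WT against 96.4 (89.8 to 103) for the library labelled Siah2-/-, 4.96 times as high, a log2 ratio of 2.31 (1.99 to 2.64). After thinning, a Tnfrsf9 UMI was found in 5.62% (3.70 to 8.12) of cells for WT against 20.2% (17.7 to 23.0) for the library labelled Siah2-/-. CD45-low cells had shares of 8.01% and 9.36% and levels of 20.8 and 29.1. The values of the library labelled Siah2-/- were above these. The WT level lay between those of the CD45-low clusters of its library, 32.5 (29.1 to 36.3) in the one led by Hmga2 and 11.4 (9.58 to 13.5) in the one led by Mgp and Apod. The top cell held 18.9% and 2.75% of the UMIs. Over all macrophages Tnfrsf9 was at 30.4 and 54.8, a log2 ratio of 0.85 (0.72 to 0.98). In all macrophage barcodes of 1000 UMIs or more it was at 7.11 and 43.7, a log2 ratio of 2.62 (2.34 to 2.90). The size depended on the clusters, since without integrating the libraries the Cxcl2 macrophage value was 0.87. Both values in Cxcl2 macrophages were below those of empty droplets, 221 and 216, and Chil3 monocytes were lower in the library labelled Siah2-/-, at 39.6 and 26.2.

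**Figure D5:**
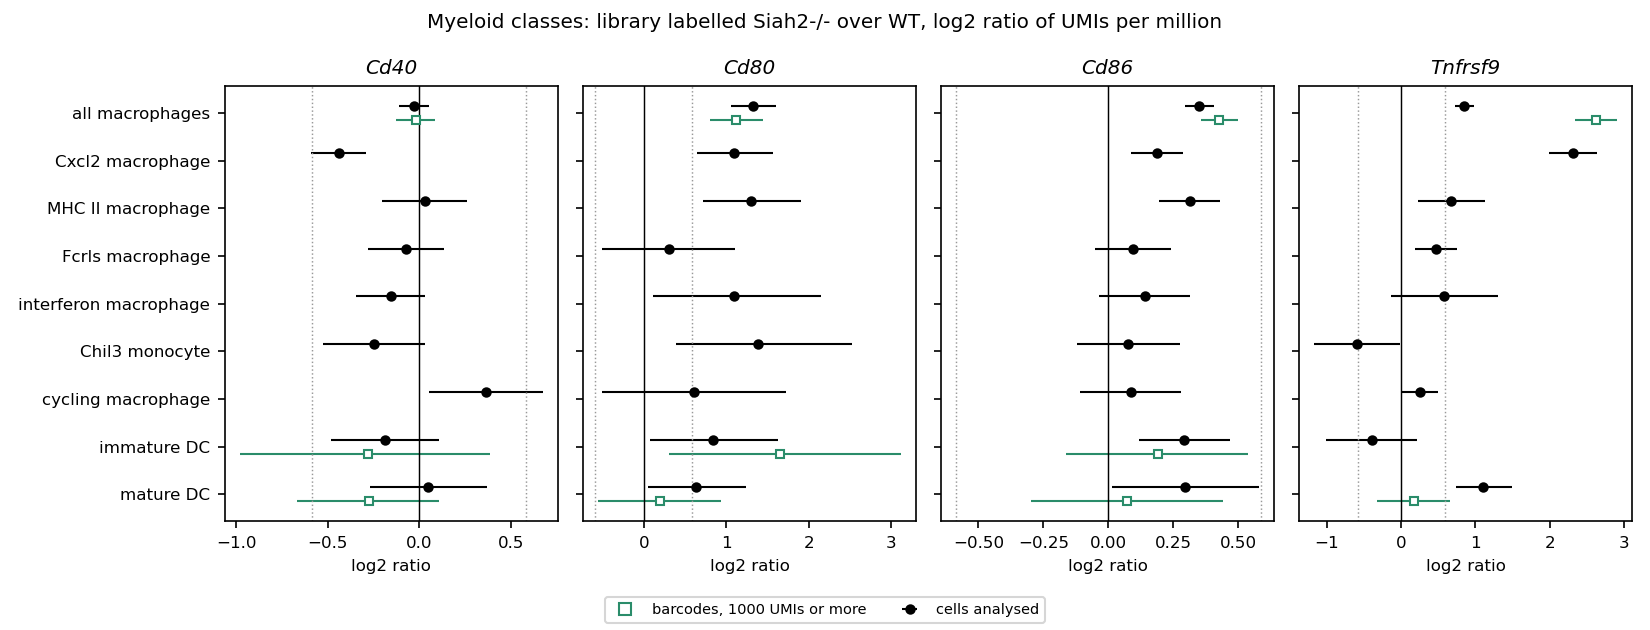
Log2 ratio of CPM, library labelled Siah2-/- over WT, for Cd40, Cd80, Cd86 and Tnfrsf9 in macrophage and DC classes, with 95% counting intervals. Circles are the cells analysed, squares barcodes with 1000 UMIs or more, and dotted lines 1.5-fold. The points of Cd80 lie right of 0 in every class shown, those of Cd40 lie within 1.5-fold of it, and Tnfrsf9 reaches 2.31 in Cxcl2 macrophages.

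In the macrophage states, members past 1.5-fold were again read against all genes. Cxcl2 macrophages had 4 of 8 members higher in the library labelled Siah2-/-, against 10.3% of all genes, and 0 lower, against 7.06%. The higher ones were Cd28 (14 and 62 UMIs), Icos (14 and 72 UMIs), Tnfrsf9 and Cd80. Cd28 and Icos met the minimum of UMIs for a counted pair only through the library labelled Siah2-/-. MHC II macrophages had 3 of 8 higher, against 9.36%, and 1 lower, against 5.68%. Cd28 (19 and 34 UMIs) met that minimum only through the library labelled Siah2-/-, which leaves Tnfrsf9 and Cd80. Cycling macrophages had 3 of 8 higher, against 8.79%, and 0 lower, against 6.19%. Interferon macrophages had 2 of 8 higher, against 10.7%, and 1 lower, against 8.87%. The higher ones were Cd28 (17 and 25 UMIs) and Cd80 (14 and 26 UMIs). Both met that minimum only through the library labelled Siah2-/-, which leaves no higher member. Chil3 monocytes had 1 of 8 higher, against 11.4%, and 1 lower, against 8.85%. The higher one, Cd80 (10 and 55 UMIs), also met that minimum only through the library labelled Siah2-/-, which leaves no higher member. Fcrls macrophages had 1 of 8 higher, against 9.02%, and 0 lower, against 7.18%. Of the 14 higher pairs in these states 7 were the T cell genes Cd28 or Icos. Cd28 was low in Cxcl2 macrophages, at 3.02 and 7.47, with Cd3e at 7.78 and 15.1 in the same cells. Cycling macrophages held more, with Cd28 at 27.3 and 66.4 and Icos at 29.5 and 71.3. A CD3 UMI was found in 45.7% and 70.0% of cycling macrophages. T and NK marker genes stood in them at 46.4% and 50.2% of their level in empty droplets. The part of T cell RNA in these values was not tested. The 2 values of Tnfrsf4 that were lower, in MHC II and interferon macrophages, rested on 1 WT cell each, with 51.9% and 58.7% of the UMIs, and without the top cells the log2 ratios were 0.06 and 0.20.

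Mature DCs, led by Ccr7 and Ccl22, held counts of myeloid members and TNF receptors alike. They carried Cd80 at 57.0 (39.9 to 78.9) for WT against 88.2 (70.2 to 109) for the library labelled Siah2-/-. No other class reached this level, and immature DCs held 13.2 (8.56 to 19.5) and 23.6 (16.7 to 32.4). Within each library, mature over immature DCs had a log2 ratio of 2.11 for WT against 1.90 for the library labelled Siah2-/- for Cd80, and 0.87 and 1.10 for Cd40. In each library 6 of 8 members were past 1.5-fold higher in mature DCs, against 19.5% and 21.3% of all genes, and 0 were lower, against 32.3% and 29.2%. Cd40, Cd80, Tnfrsf4, Tnfrsf9 and Tnfrsf18 were among them in both, with Cd28 in WT (15 and 14 UMIs) and Icos in the library labelled Siah2-/- (21 and 5 UMIs). T and NK marker genes stood in mature DCs at 31.5% and 18.0% of their level in empty droplets, and at 9.69% and 10.6% in immature ones. Cd86 differed little between the DC classes, with -0.08 and -0.08. Mature DCs also held Tnfrsf4 at 363 (317 to 413) and 262 (231 to 298), Tnfrsf9 at 128 (102 to 159) and 276 (244 to 312) and Tnfrsf18 at 234 (198 to 275) and 296 (262 to 333), with Cd3e at 49.1 and 33.4.

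Between the libraries, Tnfrsf9 and Cd80 were past 1.5-fold higher in mature DCs of the library labelled Siah2-/-. The log2 ratios were 1.11 (0.74 to 1.49), or 1.53 without the top cells, of which the WT one held 32.1% of the UMIs, and 0.63 (0.05 to 1.24), and Tnfrsf4 was within 1.5-fold at -0.47 (-0.73 to -0.20). These were 2 of 8 members, against 14.6% of all genes, and 0 were lower, against 10.0%. Mature DCs numbered 52 and 88, and neither the Tnfrsf9 nor the Cd80 value held in the 60 and 38 mature DC barcodes of 1000 UMIs or more, where they were 0.17 (-0.32 to 0.66) and 0.19 (-0.55 to 0.93). Tnfrsf4 was past 1.5-fold lower in those barcodes, at -1.09. It was so too by marker UMIs alone (-0.90) and without mixed barcodes (-0.86). In immature DCs 2 of 8 were higher, against 12.7%, and 2 were lower, against 9.85%. The higher ones were Cd80 and, at 7.41 and 14.9, Cd28, of which 1 cell held 41.7% in the library labelled Siah2-/-. Cd28 (14 and 24 UMIs) met the minimum of UMIs for a counted pair only through that library. The lower ones were Icos, at 26.5 and 3.11, and Tnfrsf4, at 113 and 32.9, of which 1 cell held 48.8% and 62.3%. The immature DC class was not the same mix in the libraries, with Xcr1 at 86.8 and 17.4 and Cd209a at 192 and 487, which mark different DC types. The share of mature DCs with all 3 of Cd40, Cd80 and Cd86 was 5.77% (1.21 to 15.9) for WT against 15.9% (8.98 to 25.2) for the library labelled Siah2-/-, with overlapping intervals.

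Over all 14 classes, 103 of 126 pairs of member and class had 20 UMIs, of which 35 were at least 1.5-fold higher in the library labelled Siah2-/- and 6 lower. In single classes 8.14% to 27.0% of all genes were higher and 4.85% to 19.1% lower. Some of the 35 had 20 UMIs only through the library labelled Siah2-/-, as given for each class above. The interval held 0 for 6 of the 35, namely Cd28 in MHC II and interferon macrophages, Cd80 in cycling CD8 T cells and cycling macrophages, Cd40lg in non-cycling CD8 T cells and Cd86 in CD4 T cells without Foxp3. Cd28 gave 11 of the 35, Icos 8, Cd80 8, Tnfrsf9 3, Cd86 2, Cd40lg 2 and Tnfrsf4 1. Tnfrsf4 gave 4 of the 6 lower pairs, Icos 1 and Tnfrsf9 1. Cd40 and Tnfrsf18 gave none in either direction in these values, over 8 and 14 pairs with 20 UMIs. The median log2 ratio of all genes lay between -0.05 and 0.07 in these classes.

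Other genes of the costimulatory pathway were counted from a list of 42 genes, of which 41 were in the count table. In Foxp3+ T cells 6 of 31 with 20 UMIs were at least 1.5-fold higher in the library labelled Siah2-/- and 0 lower, against 13.0% and 13.4% of all genes. Tnfaip3, the NF-kB feedback inhibitor A20, was at 47.2 and 114, a log2 ratio of 1.27 (0.72 to 1.85). Pik3cd and Pik3r1, subunits of the PI3 kinase that CD28 recruits, were at 29.8 and 66.9 and 36.0 and 61.3, and Prkcq, a kinase of the CD28 signal, at 53.4 and 113. The others were Slamf1 (22.4 and 42.4) and Cd274 (21.1 and 35.7), which encodes PD-L1.

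In CD8 T cells the inhibitory receptor Ctla4, which lies between Cd28 and Icos, was higher too. It was at 76.2 and 231 in cycling CD8 T cells and 87.8 and 186 in non-cycling ones, with log2 ratios of 1.60 (1.40 to 1.80) and 1.08 (0.81 to 1.36). Cycling CD8 T cells had 5 of 38 list genes higher and 3 lower, against 8.14% and 6.18% of all genes. The 6 with the widest ratios were Cd70 (-3.06, interval -5.43 to -1.35), Tnfsf4 (-2.87, interval -5.26 to -1.14), Ctla4, Tnfaip3 (1.21), Il2ra (0.74) and Il2 (0.69). Cd70 and Tnfsf4 are ligands with 3 UMIs each in the library labelled Siah2-/-. Non-cycling CD8 T cells had 6 of 36 higher and 1 lower, against 14.0% and 9.31%. The widest ratios were those of Il2 (3.81), Icosl (1.98), Tnfaip3 (1.27), Ctla4, Map3k14 (0.83) and Tnfsf9 (-0.65). The Il2 value rested largely on 1 cell with 91.5% of the UMIs of the library labelled Siah2-/- and was 1.84 without the top cells.

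NK cells had 7 of 37 list genes higher and 2 lower, against 12.7% and 4.85% of all genes. CD4 T cells without Foxp3 had 12 of 34 higher and 5 lower, against 27.0% and 19.1%.

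Over all macrophages both PD-1 ligands of the list were past 1.5-fold higher in the library labelled Siah2-/-. These cells had 6 of 40 genes higher and 4 lower, against 9.18% and 8.38% of all genes. Cd274 was at 42.7 and 118 and Pdcd1lg2, which encodes PD-L2, at 9.22 and 22.7, with log2 ratios of 1.47 (1.37 to 1.57) and 1.30 (1.08 to 1.53). Tnfaip3 was at 17.5 and 38.5. Below WT by the widest ratios were Cd70 (-1.91) and Ccl22 (-1.40), both under 3 CPM, and Tnfrsf14 was higher (0.89). Immature DCs had 7 of 32 higher and 5 lower, against 12.7% and 9.85%, with Tnfsf9, the 4-1BB ligand, at 30.2 and 85.8, Cd274 at 39.7 and 98.2, and Traf3, Tnfaip3 and Il2ra at log2 ratios of 1.16, 1.13 and -2.62. Mature DCs had 5 of 34 higher and 3 lower, shares close to the 14.6% and 10.0% of all genes. Tnfsf4, the OX40 ligand, was at 17.4 and 49.5 in them, Bcl2 at 20.6 and 60.2, Tnfaip3 at 36.4 and 78.5, Cd274 at 179 and 315, while Pdcd1lg2 was within 1.5-fold (150.4 and 219), and the chemokine Ccl22 was lower at 1824 and 979. Tnfaip3 was past 1.5-fold higher in all 14 classes and in CD45-low cells. Free RNA of these genes also differed, with empty droplets at 31.1 and 95.8 for Tnfaip3 and at 21.2 and 65.3 for Cd274.

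The genes whose levels were most like a member were taken by Pearson correlation of log2(CPM + 10) over 28 points, the 14 classes in each library, among 4628 genes. Classes share libraries, depth and gates, so the correlations are descriptions. Cd28 was most like Ets1 (Pearson r 0.989), Gata3 (0.985) and Zap70 (0.981), which encode T cell transcription factors and a T cell receptor kinase. Icos was most like Ctla4 (0.978), its genomic neighbour, then Sv2c (0.932) and Rora (0.928). Tnfrsf4 was most like Il2ra (0.914), the IL-2 receptor chain of regulatory T cells, Sdcbp2 (0.896) and Sdf4 (0.887), whose start lies 21.0 kb from that of Tnfrsf4. Tnfrsf9 was most like Rhof (0.957), Sh2d2a (0.929) and Zdhhc18 (0.929), and Tnfrsf18 most like Pkp3 (0.954), Dock2 (0.930) and Cd247 (0.919).

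Among the other members, Cd40 was most like Rasa4 (0.968), Ptafr (0.960) and Snx10 (0.958), Cd80 most like Tnip3 (0.941) and Got1 (0.935), and Cd86 most like Atox1 (0.943), Csf2rb (0.936) and Csf2rb2 (0.930). Csf2rb and Csf2rb2 are close paralogs whose reads the counting could split. Cd40lg was most like Cd4 (0.885), Lgals7 (0.871) and 5430421N21Rik (0.859). With a pseudocount of 1 in place of 10, 17 of the 27 genes so taken were again among the 3 most like their member.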

How the data were processed

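Single-cell RNA was measured by droplet sequencing with 3′ chemistry in 1 library per genotype. The submitters' processing notes name bcl2fastq, Cell Ranger, mm10 and GRCm38, whose versions are not given in the sources used here. The authors deposited unfiltered UMI count matrices (27998 genes, 737280 barcodes) and a UMI count table of the 10100 cells they kept after removing cells at the extremes of genes per cell or with over 10% mitochondrial reads. They also deposited a natural log table (1 + UMIs per 10000), from which only the list of 10075 cells was used. Total UMIs in these cells were 64793053 for WT against 59090284 for the library labelled Siah2-/-.

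Cells were clustered with Seurat 5.3.0 in R 4.3.3 after canonical correlation integration (2000 variable genes, 20 dimensions, resolution 0.8), with the members, pathway, mitochondrial, ribosomal and haemoglobin genes left out, and lymphoid clusters were clustered again. Clusters were named from markers, and T cells were divided by UMIs of Foxp3, Cd4, Cd8a, Cd8b1 and cycling genes (5 UMIs or more). The thresholds behind these names were chosen with the clusters in view. Barcodes with T cell and macrophage markers together entered no class. Scrublet (scanpy 1.11.5) marked 0.244% and 0.018% of cells, which is too few to have worked, so no doublet was removed.

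UMIs were summed per class and library. Intervals were exact Poisson, conditional binomial for ratios and Clopper-Pearson for shares (Python 3.11.15, numpy 2.4.6, scipy 1.17.1, pandas 2.3.3). Ratio intervals were run on simulated counts from the same counting model. Such counts cannot show the effect of UMIs gathered in single cells. A pair was counted past 1.5-fold with at least 20 UMIs over both libraries, beside the share of all genes past that fold. The 9 members were described in every class. Of the pathway list, up to 6 genes past 1.5-fold with the widest ratios were named in Foxp3+, CD8, DC and macrophage classes, and for each member the 3 genes of highest correlation among those with 50 CPM in some class. Some genes that these rules name are not reported here. The members and lists were chosen with earlier results of these data known. Alternatives changed the scaling, the cells, the classes and the treatment of free RNA and doublets. Promoters came from RefSeq (GRCm38.p6).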

Additional observations from a re-analysis of the deposited data

How the results depend on the processing

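No paired analysis was possible because each genotype is 1 library, and for the same reason no replicate could be left out. The number of pairs of member and class at least 1.5-fold higher in the library labelled Siah2-/-, 35 with 6 lower, stayed between 33 and 39 under 8 alternatives and was 51 with no minimum of UMIs. The number lower was 10 without integration, 12 without the 5% of barcodes with the highest doublet scores and 2 without barcodes of mixed type, and 5 to 9 otherwise. The alternative that left out the top cell of each library was chosen after seeing the data. Of the 35 higher pairs, 29 stayed past the fold with the WT minimum in both libraries, 28 of the 32 with a value after free RNA was subtracted, and 32 without mixed barcodes, which removed 24.1% and 45.0% of macrophages and 1 T or NK cell. In barcodes of 1000 UMIs or more, 14 of 23 stayed.

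Among pairs past 1.5-fold, the log2 ratios that turned were those of T cell genes in myeloid classes and of low counts. In MHC II macrophages these were Cd28 (-0.059, free RNA subtracted), Tnfrsf4 (0.42 without mixed barcodes, 0.062 without the top cells) and Tnfrsf9 (-0.057, no integration). In interferon macrophages they were Cd28 (-0.018) and Tnfrsf4 (1.46) without mixed barcodes, and Tnfrsf4 (0.20) without the top cells. Without mixed barcodes Tnfrsf9 in Chil3 monocytes was 0.50, Tnfrsf4 in immature DCs 0.12 and Cd80 in cycling macrophages -0.85, and the last was -0.57 without high doublet scores. In immature DCs, Icos was 0.081 and Tnfrsf4 0.99 by marker UMIs alone, and 0.52 and 1.07 in barcodes of 1000 UMIs or more, where Cd86 in CD4 T cells without Foxp3 was -0.0027. Pairs within 1.5-fold turned as well, such as Cd86 in MHC II macrophages, from 0.31 to -0.074 without integration. Cd80 in Fcrls macrophages turned further, from 0.31 to -0.93 without integration. The cause was not tested.

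Over all alternatives, Cd28 ranged from 0.98 to 1.09 in non-cycling CD8 T cells and from 0.39 to 1.02 in Foxp3+ T cells, Icos from 1.23 to 1.77 and from 0.27 to 0.67. Over all macrophages Cd80 ranged from 1.12 to 1.41, Cd86 from 0.29 to 0.52, Cd40 from -0.12 to 0.12 and Tnfrsf9 from 0.62 to 2.62. At this depth Cd40lg had 20 UMIs in 2 of the 14 classes.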

Other observations

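Barcodes that held T cell and macrophage markers together, 248 from WT and 354 from the library labelled Siah2-/-, entered no class. They carried members of both kinds. Cd28 was at 85.8 and 137, Icos at 119.8 and 157 and Tnfrsf4 at 244 and 231 CPM, while Cd40 was at 53.0 and 55.2 and Cd86 at 136 and 159. Cd80 was at 3.40 (1.76 to 5.94) and 12.8 (9.85 to 16.3), intervals that did not overlap, as in macrophages.

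CD45-low cells fell into clusters that differed in Tnfrsf9. In the cluster led by Hmga2, with 285 and 39 cells, Tnfrsf9 was at 32.5 (29.1 to 36.3) for WT against 66.3 (49.1 to 87.7) for the library labelled Siah2-/-. In the cluster led by Mgp and Apod, with 551 and 132 cells, it was at 11.4 (9.58 to 13.5) in WT. Cd80 was at 5.95 (4.52 to 7.69) and 3.47 (2.50 to 4.69) in these clusters of the WT library, which held 28.0% of its Cd80 UMIs.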
